A study of Mus musculus with 4 samples.

Results

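The channels that shape the electrical behaviour of hindbrain neurons were followed through 36 genes, selected from the 32285 genes of the count tables by their symbols. These were all genes named as voltage-gated sodium channel alpha (Scn and a number with the letter a) or beta (with the letter b) subunits, calcium channel pore (Cacna1), alpha2delta (Cacna2d) or beta (Cacnb) subunits, or HCN channels. They comprised 10 sodium channel alpha subunits, 4 sodium channel beta subunits, 7 high-voltage-activated and 3 T-type calcium channel pores, 4 alpha2delta subunits, 4 calcium channel beta subunits and 4 HCN channels. Nuclei of the posterior hindbrain were profiled by droplet 3′ single-nucleus RNA sequencing in 4 libraries, 2 per group, from 2 mice per group. Control mice are labelled WT. The breeding described in the study's methods gives controls both floxed or roxed designer receptor alleles without a recombinase. AgRP-Gq;POMC-Gi mice carried AgRP-IRES-Cre+/-, hM3DGq fl/-, POMC-Dre+/- and hM4DGi fl/-. Cre and Dre act in AgRP and POMC neurons, where hM3DGq is an activating and hM4DGi an inhibitory receptor for clozapine N-oxide (CNO). All animals, controls included, were 12 to 20 weeks old, of both sexes, on a C57BL/6 background, and received 3 mg/kg CNO intraperitoneally 1 h before collection. Food was absent between injection and collection.

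Sodium channels open on depolarization and carry the rising phase of the action potential, and their beta subunits tune gating and membrane localization. High-voltage-activated calcium channels admit calcium for transmitter release and for signalling to the nucleus, while T-type channels open near rest and favour bursting. The alpha2delta and beta subunits bring calcium channel pores to the membrane and set their number at the synapse, and alpha2delta-1 and alpha2delta-2 are the targets of gabapentin. HCN channels open on hyperpolarization, pass a depolarizing cation current and contribute to pacemaking in heart and brain.

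The 4 libraries held 9723 to 10051 nuclei and 48904976 to 53089402 unique transcript counts (UMIs) after the study's quality filter, and 2470, 2736, 3696 and 3637 of the nuclei were annotated as neurons in control libraries 1 and 2 and AgRP-Gq;POMC-Gi libraries 1 and 2. The neuronal share of nuclei was 25.4%, 27.2%, 38.0% and 36.5% in this order. Median depth was 8252 to 9624 UMIs per neuron. Of 39293 distinct barcodes among the kept nuclei, 168 (0.428%) occurred in more than 1 library. Levels are given as CPM, the UMIs of a gene scaled to a total of 1000000 UMIs of the same cells in the same library, with the mean and SD over the 4 libraries where no group is named. AgRP-Gq;POMC-Gi library 2 stood apart in Xist, the transcript that silences one X chromosome in females, at 16.2 CPM in neurons against 319 to 541 in the others. AgRP-Gq;POMC-Gi library 1 stood apart in its short genes, as given below with the neuronal comparison. Of 39 marker genes for 11 cell type annotations, 36 were highest in their own type, including all 5 neuron markers. Cspg4, Slc1a3 and Vim were the exceptions.

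Across the annotated cell types, 33 of the 36 channel genes had at least 50 UMIs. By mean over libraries 20 of them were highest in neurons, while 10.0% of the 20765 genes with as many UMIs were. Of the 20, Scn2b, Cacna1f, Cacna2d3 and Hcn4 were highest there in only 2 of the 4 libraries. Clusters and types were built from the same transcripts, so these levels are a description without a test. Genes were compared with each other per 10 kb of gene length, a scale that assumes counts spread along the gene. Whether intronic reads were counted is not given in the sources used here. On that scale Scn9a led the sodium channel pores in neurons, with 33.6 CPM per 10 kb, next to 29.7 for Cacna1a, the P/Q-type pore of fast transmitter release, at the head of the high-voltage group. Cacna1g led the T-type pores with 7.67, Cacna2d2 the alpha2delta subunits with 12.7 and Cacnb2 the calcium channel beta subunits with 13.7 CPM per 10 kb. Without the length scale Cacna2d2 was below Cacna2d1 and Cacna2d3, at 165 against 506 and 526 CPM. Among HCN genes Hcn2 was highest on this scale, with 29.0 CPM per 10 kb. It was not the highest HCN gene without the length scale, where it stood at 56.5 CPM in neurons.

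The sodium channel pores of neurons were Scn9a, Scn1a, Scn2a, Scn8a and Scn3a. Scn9a, a pore best known from nociceptors, was measured at 521 ± 47.4 CPM in neurons (SD, n = 4 libraries), 12.4-fold above the next type. Scn1a and Scn2a, at 473 ± 18.7 and 310.0 ± 13.3 CPM, and Scn3a, at 163 ± 18.2 CPM, had their second-highest level in oligodendrocyte precursor cells (OPCs). The OPC levels were 220.2 ± 11.3, 184 ± 20.7 and 139 ± 12.5 CPM, so neurons exceeded OPCs by 2.15-fold, 1.68-fold and 1.17-fold. For Scn3a the neuronal and OPC ranges overlapped, and neurons were highest in 3 of 4 libraries. The muscle pore Scn4a, with 4 UMIs in neurons, and the nociceptor pore Scn10a, with 10 UMIs, were near the detection limit throughout.

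Of the 33 genes, 13 had their highest level outside neurons. Hcn2, which encodes a cyclic AMP-sensitive HCN channel, was measured at 380, 399, 360.0 and 363 CPM in oligodendrocytes of the 2 control and the 2 AgRP-Gq;POMC-Gi libraries, and at 61.7, 61.6, 44.5 and 58.2 CPM in neurons. All 4 oligodendrocyte values lay above all 4 neuronal values. After each nucleus was thinned to 800 UMIs, Hcn2 was detected in 26.2% of oligodendrocyte and 4.71% of neuronal nuclei. Without thinning the shares were 56.3% and 39.3%, at median depths of 2460 and 8704 UMIs. In the remaining annotated types the mean Hcn2 level was at or below 62.9 CPM. Hcn3 and Hcn4, the sinoatrial pacemaker channel, had their highest mean in neurons, at 15.8 ± 0.411 and 4.25 ± 0.585 CPM. Neurons were the highest type in 3 of 4 libraries for Hcn3 and in 2 of 4 for Hcn4. The promoter window of Hcn2 is shown because this HCN gene was highest in oligodendrocytes. It runs from 250 bases before to 50 after the transcription start in RefSeq on GRCm38.p6. Windows are written 5′ to 3′ on the strand of the gene, with the dinucleotide CG, the substrate of DNA methylation, in capitals. Of the 36 genes, 26 had an entry.
Hcn2 (chr10:79716384-79716683, + strand): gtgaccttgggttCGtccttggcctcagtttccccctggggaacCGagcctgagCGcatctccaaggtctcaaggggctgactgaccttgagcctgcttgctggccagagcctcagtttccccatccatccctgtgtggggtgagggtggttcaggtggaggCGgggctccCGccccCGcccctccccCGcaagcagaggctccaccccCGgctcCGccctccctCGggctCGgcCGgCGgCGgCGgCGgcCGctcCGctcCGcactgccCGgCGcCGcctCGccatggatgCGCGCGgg

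It held 26 CG dinucleotides, more than 83.1% of the 32851 promoter windows in the table, whose median was 7. CG reads alike on both strands.

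Mural cells, the pericytes and smooth muscle of vessels, carried the cardiac and vascular L-type pore Cacna1c at 1853, 1737, 1548 and 1507 CPM, against 529, 514, 481 and 486 CPM in neurons. The T-type pore Cacna1h was measured there at 125, 74.7, 135 and 86.0 CPM, against 10.7 to 14.7 CPM in neurons. For both genes every mural value exceeded every neuronal value. Cacnb2, the beta subunit partner of L-type channels in heart, reached 1285 ± 354 CPM in tanycyte-like cells, 1061 ± 202 in mural cells, 773 ± 86.5 in Tmem119 immune cells and 752 ± 125 in ependymal cells, against 528 ± 38.1 in neurons and 6.41 ± 0.274 in oligodendrocytes. Oligodendrocytes were also the highest type for Cacna2d4, an alpha2delta subunit known from photoreceptors, with 21.8 to 23.5 CPM against 1.91 to 2.98 CPM in neurons. Cacnb4, the beta subunit mutated in the lethargic mouse, was measured at 947 and 1056 CPM in choroid plexus of the 2 libraries with 436 and 329 such nuclei. The other 2 libraries held 2 and 6 choroid plexus nuclei. Cacnb4 also stood at 506 ± 77.0 CPM in tanycyte-like cells and 241 ± 23.1 in oligodendrocytes, whose libraries overlapped those of neurons at 220.1 ± 8.67.

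Scn7a, a sodium-sensing rather than depolarization-gated channel, was measured in fibroblasts at 22.2, 44.8, 104 and 85.4 CPM and in ependymal cells at 42.9, 64.7, 90.6 and 34.8 CPM, against 12.0 to 16.1 CPM in neurons. Every library of both types was above the neuronal range, but the lowest fibroblast value rested on 4 UMIs in 1 of 72 nuclei. Scn3b, Scn4b, Cacnb1 and Cacnb3 were also among the genes with a non-neuronal maximum. For Scn3b, in ependymal cells at 56.8 ± 24.1 CPM against 32.7 ± 2.01 in neurons, and for the other three, the top type was small and its libraries overlapped the neuronal range or rested on few UMIs. Scn4b, as an example, had 2 UMIs in its top type. The heatmap of levels by cell type shows these exceptions against the neuronal column.

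**Figure D1:**
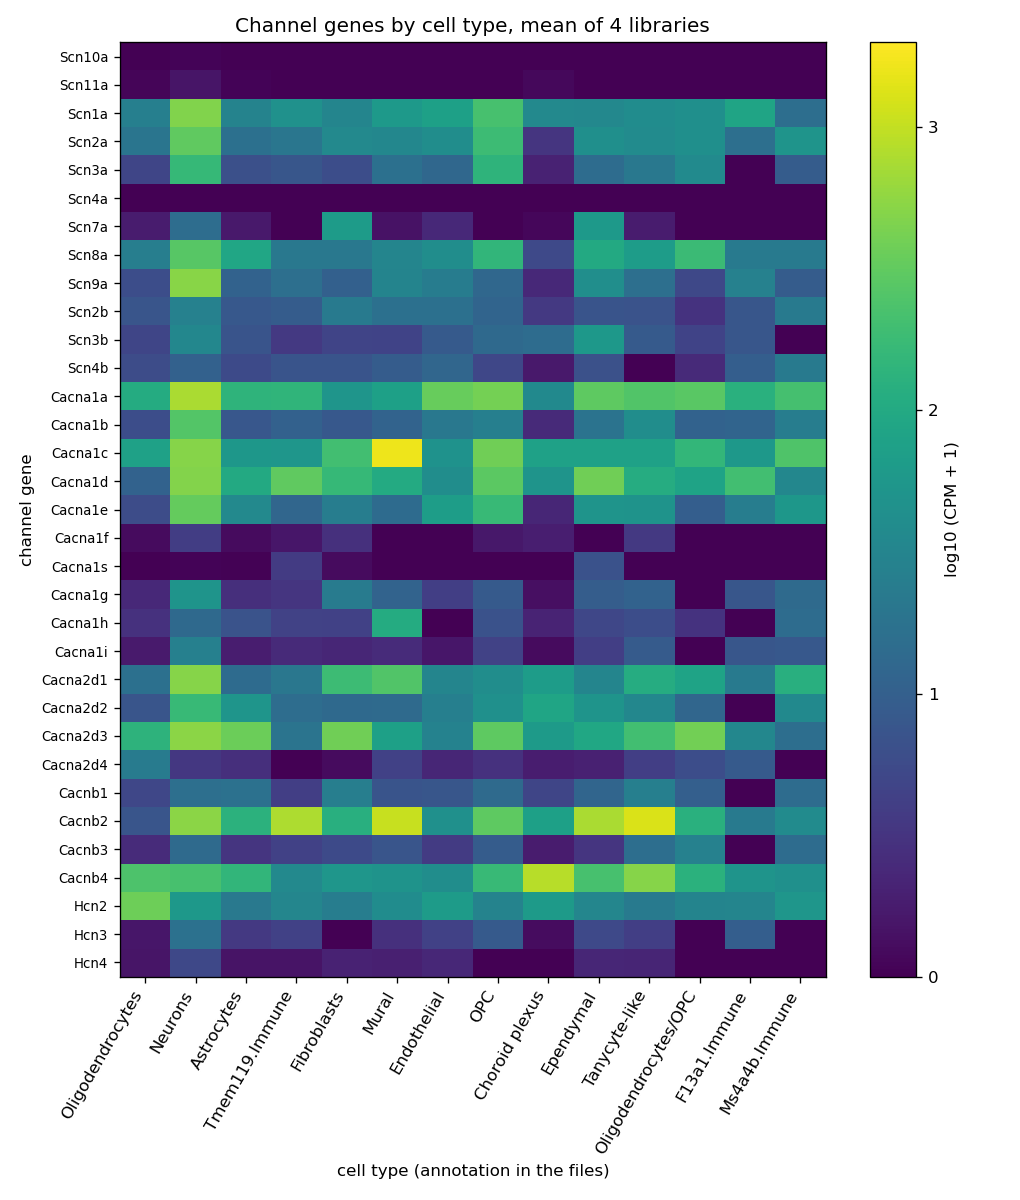
Levels of 33 channel genes (rows, ordered by role) in the annotated cell types with at least 50 nuclei (columns, ordered by number of nuclei), as log10 of mean CPM over 4 libraries plus 1. The neuron column is bright for most pores, while Hcn2 is brightest in oligodendrocytes (376 CPM), Cacna1c in mural cells (1661 CPM) and Cacnb4 in choroid plexus.

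Neurons were next divided by their vesicular transporters, Slc17a6 for glutamate and Slc32a1 for GABA and glycine. Of 134 neuronal clusters, 69 with 6201 nuclei had at least 4-fold more Slc17a6 and were called glutamatergic, and 46 with 4933 nuclei had at least 4-fold more Slc32a1 and were called GABAergic. A further 7 were mixed and 12 had too few transporter UMIs. Only 2 of the 28 channel genes detected in at least 5% of neurons (7.14%) passed a 2-fold difference on the same side in all 4 libraries, while 0.949% of the 12115 genes detected as widely did (0.578% on the glutamatergic and 0.371% on the GABAergic side). Both were alpha2delta subunits, and they went opposite ways. Cacna2d1, which also binds thrombospondin at excitatory synapses, was measured at 871, 850.5, 960.3 and 945 CPM in the glutamatergic clusters of the 2 control and the 2 AgRP-Gq;POMC-Gi libraries, and at 57.9, 38.7, 51.9 and 59.3 CPM in the GABAergic ones. Cacna2d3 was measured at 209.9, 239, 239 and 178 CPM in glutamatergic and at 907, 874, 916 and 944 CPM in GABAergic clusters. The classes did not overlap for either gene in any library. On the log2 scale the glutamatergic to GABAergic ratio was 4.14 ± 0.25 for Cacna2d1 and -2.08 ± 0.24 for Cacna2d3 (SD, n = 4 libraries). The classes were defined by other genes, but the study built the clusters from highly variable genes of the same nuclei. Whether the alpha2delta genes were among these is not given in the sources used here, so no test was made.

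None of the more abundant pores was past 2-fold between the classes in every library. The log2 ratio averaged -0.04 for Scn1a, 0.03 for Scn2a, -0.12 for Scn8a, 0.22 for Cacna1a, 0.04 for the N-type pore Cacna1b, 0.13 for Cacna1c, 0.19 for Cacna1d and 0.38 for Cacna1e. Scn9a had a ratio of -0.26 ± 0.09 and was higher in the GABAergic clusters of all 4 libraries (482 to 598 against 431 to 514 CPM). Cacna1h had a ratio of 1.02 ± 0.25 and was higher in the glutamatergic clusters of all 4 libraries (14.2 to 20.7 against 6.72 to 9.04 CPM) but past 2-fold in only 2 of them. Cacna1i, another T-type pore, had the opposite ratio of -0.67 ± 0.18, and Cacna2d2, another alpha2delta subunit, -0.47 ± 0.03. Hcn2 was lower in glutamatergic clusters in every library, with a mean log2 ratio of -0.20. Outside the 5% limit, Scn11a was past 2-fold on the glutamatergic side in all 4 libraries. It had only 67 UMIs in neurons, 51 of them in glutamatergic cluster 97, and its GABAergic level was 0 to 0.151 CPM.

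**Figure D2:**
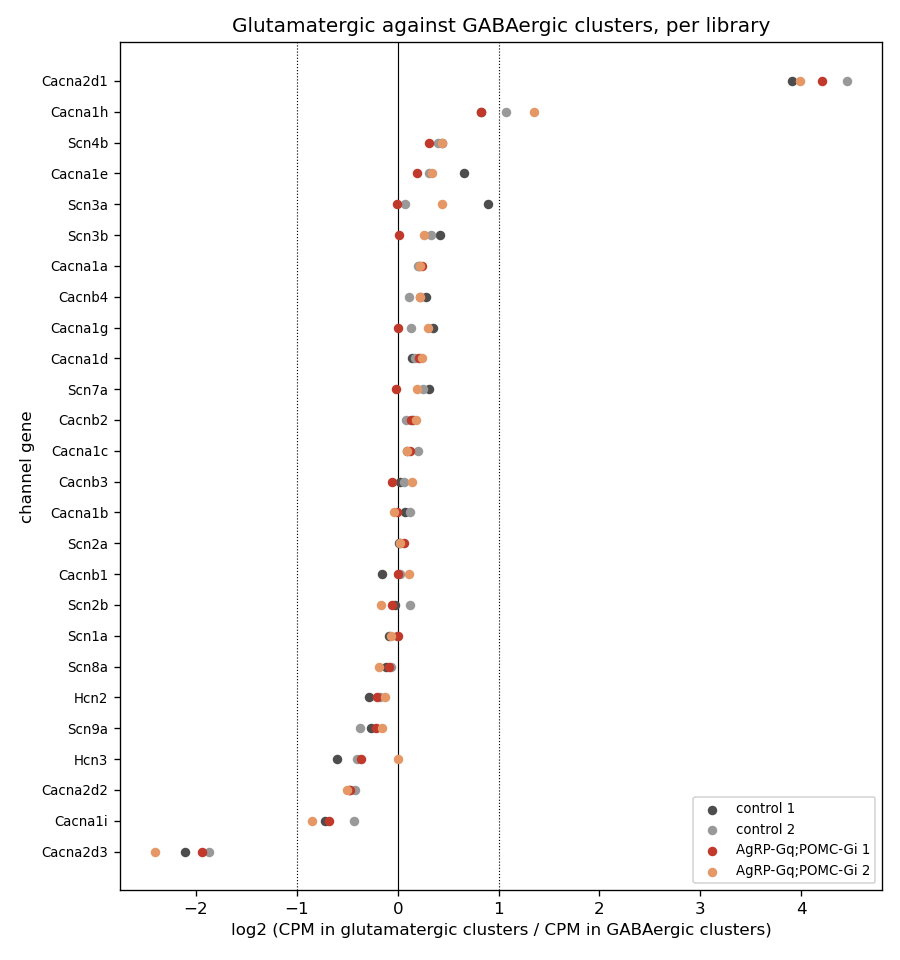
Glutamatergic against GABAergic clusters: log2 ratio of CPM (x axis) for 26 of the channel genes detected in at least 5% of neurons (y axis), 1 point per library, with dotted lines at 2-fold. Cacna2d1, between 3.91 and 4.46, and Cacna2d3, between -2.41 and -1.87, lie beyond the lines in all 4 libraries.

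The opposition of the alpha2delta genes held cluster by cluster. Clusters were compared where each library had 5 or more nuclei, which left 120. Of these, 61 were glutamatergic, and in all 61 the level per gene length of Cacna2d1 exceeded that of Cacna2d3. Of 45 GABAergic clusters, 44 had more Cacna2d3 per length. The exception was cluster 163 (Adamts18/Col25a1), with 171.5 CPM of Cacna2d1 and 12.6 CPM of Cacna2d3 in 47 nuclei. Cacna2d1 ranged from 408 to 2287 CPM over glutamatergic clusters and from 1.23 to 279.6 CPM over GABAergic clusters, so these ranges did not overlap. Cacna2d3 ranged from 12.6 to 2024 CPM in GABAergic and from 17.2 to 746 CPM in glutamatergic clusters, which did overlap. The lowest glutamatergic Cacna2d1 levels, 408 and 427 CPM, were in clusters 113 (Slc17a7/Il1rapl2) and 135 (Zfp804b/Etl4). On CPM without division by length, both of these clusters had more Cacna2d3, at 630 and 604 CPM. The highest GABAergic Cacna2d1 level, 279.6 CPM, was in cluster 46 (Col18a1/Gpc3).

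The same split was seen in single nuclei thinned to 2000 UMIs. Cacna2d1 was detected in 76.1% of 6125 glutamatergic nuclei and 7.19% of 4893 GABAergic nuclei, and Cacna2d3 in 22.6% and 62.4%. Both genes were found together in 15.9% of glutamatergic and 4.39% of GABAergic nuclei. The share with Cacna2d1 ran from 72.4% to 78.2% over the libraries in glutamatergic nuclei and from 5.64% to 7.93% in GABAergic nuclei. Thinning left out 76 and 40 nuclei of the classes that were shallower. Among clusters outside both classes, picked after their values were seen, cluster 167 (Tph2/Slc6a4), named for genes of serotonin synthesis and uptake, had 1289 CPM of Cacna2d1 and 127 CPM of Cacna2d3. Cluster 104 (Gabra6/Fat2) had 1239 and 9.26 CPM. Cluster 116 (Prph/Slc5a7), named in part for the choline transporter, held both, at 568 and 288 CPM.

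**Figure D3:**
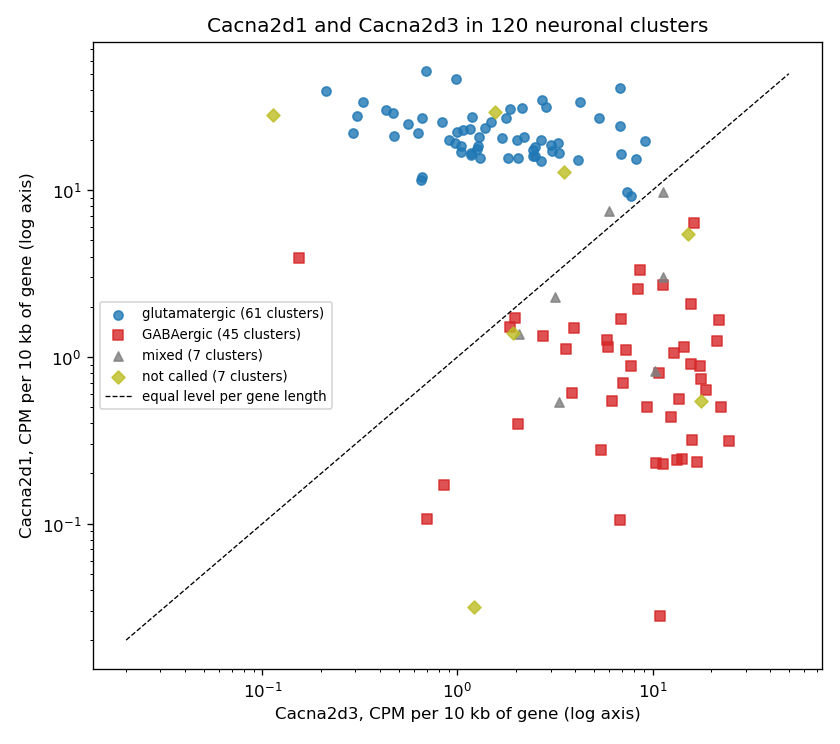
Cacna2d1 (y axis) against Cacna2d3 (x axis) in 120 neuronal clusters, as mean CPM over 4 libraries per 10 kb of gene on log axes, 1 point per cluster, shaped and coloured by transporter class. All 61 glutamatergic clusters lie above the dashed line of equal level per length and 44 of 45 GABAergic clusters below it.

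The promoter windows of both genes are shown because their expression was split between the classes, again with CG in capitals.
Cacna2d1 (chr5:15934441-15934740, + strand): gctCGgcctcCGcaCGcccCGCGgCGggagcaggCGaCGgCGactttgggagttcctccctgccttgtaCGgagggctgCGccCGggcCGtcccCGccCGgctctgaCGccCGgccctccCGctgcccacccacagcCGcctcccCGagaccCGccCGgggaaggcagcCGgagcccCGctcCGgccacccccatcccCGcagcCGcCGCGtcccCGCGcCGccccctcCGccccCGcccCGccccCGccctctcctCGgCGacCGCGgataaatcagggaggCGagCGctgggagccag
Cacna2d3 (chr14:29721815-29722114, - strand): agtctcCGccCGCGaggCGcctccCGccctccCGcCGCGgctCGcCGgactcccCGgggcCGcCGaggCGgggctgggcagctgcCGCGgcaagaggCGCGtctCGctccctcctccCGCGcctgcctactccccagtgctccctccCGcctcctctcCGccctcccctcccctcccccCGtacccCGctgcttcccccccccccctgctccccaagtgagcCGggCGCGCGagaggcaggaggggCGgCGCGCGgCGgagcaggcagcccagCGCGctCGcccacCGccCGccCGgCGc

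The windows were alike in composition. Cacna2d1 had 42 CG dinucleotides and 80% G or C, and Cacna2d3 41 and 81.3%, more CG than 97.0% and 96.5% of all windows, so this count was nearly equal for both genes.

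Within neurons, the genes differed in how unevenly they were spread over the 120 clusters. Cacna1b, Scn2a, Scn1a and Scn8a had no high peak, with the highest cluster 1.45-fold, 1.52-fold, 1.6-fold and 1.66-fold above the median cluster. This ratio leaves out the low clusters. From the lowest to the highest cluster, Scn1a ran from 174 to 735 CPM and Scn8a from 85.6 to 434 CPM. Cacna1b ran from 130 to 386 CPM and Scn2a from 215 to 483 CPM. The 10 most uneven genes with at least 50 neuronal UMIs, by the same ratio, included Scn11a, Scn7a, Scn4b, Scn3a, Cacna1h, Cacna2d3, Cacna2d4, Cacna1f and Hcn4. The identity of the highest cluster was stable for few: in 3 of 33 genes (Scn11a, Scn3a and Cacnb4) the same cluster was highest in each of the 4 libraries.

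Scn11a, the persistent-current pore Nav1.9 of sensory neurons, was close to a single-cluster gene. Cluster 97 (Gfral/Sctr), named in part for the GDF15 receptor gene Gfral, held 51 of its 67 neuronal UMIs (76.1%), and 106 of 120 clusters had no UMI. Its levels in cluster 97 were 118, 65.8, 67.2 and 42.4 CPM in the 2 control and the 2 AgRP-Gq;POMC-Gi libraries, from 8, 9, 22 and 12 UMIs, and the next cluster averaged 2.51 CPM. A UMI was found in 23 of 101 nuclei (22.8%, exact 95% interval 15.0% to 32.2%) at a median depth of 6919 UMIs. In oligodendrocytes, which should lack the gene, 5 of 16816 nuclei (0.0297%) had one at a median of 2460. Intervals here cover counting error only. The control and AgRP-Gq;POMC-Gi values did overlap. Cluster 97 was also the second of 120 for Cacna2d1, at 1891, 1814, 2394 and 2030 CPM, the fourth for Cacnb4 and the fifth for Cacnb2, and it ranked 119 for Scn1a and for Hcn2. The promoter window of Scn11a is shown for contrast with those above.
Scn11a (chr9:119825407-119825706, - strand): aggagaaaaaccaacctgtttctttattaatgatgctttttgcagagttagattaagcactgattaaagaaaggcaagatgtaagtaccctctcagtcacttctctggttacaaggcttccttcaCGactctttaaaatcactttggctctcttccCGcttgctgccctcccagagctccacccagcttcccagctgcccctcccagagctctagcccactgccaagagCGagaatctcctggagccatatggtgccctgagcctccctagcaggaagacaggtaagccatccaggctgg

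It held 3 CG dinucleotides, with only 23.3% of windows holding fewer. A window of Scn2a and that of Scn7a also held 3, so this count was not particular to Scn11a.

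Scn3a, a pore that is prominent in embryonic brain, was concentrated in cluster 72 (Ano2/Foxp2), a glutamatergic cluster. It was measured there at 1382, 1516, 1113 and 1386 CPM, against 219.9, 525, 500.4 and 507 CPM in the next cluster, 49 (Ccbe1/Tspan18), and a median of 151 CPM over clusters. All 4 values lay above those of the next cluster. The same cluster was highest for Scn3b, a sodium channel beta subunit, at 156 ± 92.9 CPM, and for the R-type pore Cacna1e, at 1309 ± 194 CPM. It was second for Cacna1g and Cacnb4. The number of its nuclei differed between libraries, at 76, 6, 6 and 39, and the glutamatergic to GABAergic log2 ratio of Scn3a ran with it, from 0.89 in control library 1 to -0.01 in AgRP-Gq;POMC-Gi library 1. Cacnb4 peaked in cluster 104 (Gabra6/Fat2) at 594, 729, 581 and 895 CPM, against 492, 561, 334 and 465 CPM in cluster 72, the next in order. Cluster 104 was also highest for Scn2a and second for Cacna1e, and lowest of 120 for Scn3a, Cacna1b and Cacna2d3.

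Other peaks were less certain. Scn7a stood at 100.0, 83.4, 88.8 and 112 CPM in cluster 149 (Cartpt/Arhgap28) and at 68.2, 98.9, 113 and 65.1 CPM in cluster 80 (Pdyn/Cpa6), overlapping ranges far above the median of 9.84 CPM. Scn4b, the resurgent-current subunit, averaged 47.5 ± 13.5 CPM in cluster 181 (Sntb1/Cpne4) and 41.7 ± 13.9 in cluster 113 (Slc17a7/Il1rapl2). Cacna1h averaged 80.2 ± 47.6, 74.8 ± 30.1 and 74.7 ± 23.0 CPM in clusters 148, 117 and 105, each with Ebf2 in its name. Cacna2d3 was led by GABAergic cluster 31 (Cdh3/Nkain3) with 2024 ± 216 CPM. Hcn4 reached 21.8 ± 7.10 CPM in cluster 148 from 6 UMIs and 21.4 ± 7.87 in cluster 38 from 38 UMIs. Cacna1f and Cacna2d4 rested on 8 and 4 UMIs in their top clusters, and their order is not resolved.

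Some subunits varied together across clusters and others apart. Among 25 genes with a median of at least 10 CPM, which form 300 pairs, Spearman's rho of the mean level over 120 clusters had a median of -0.0097, was above 0.5 for 14 pairs (4.67%) and below -0.5 for 21 (7.0%). Over all pairs of the 9877 genes with such a median, many of them less abundant, the median was 0.0151, with 0.191% above 0.5 and 0.116% below -0.5. Among the highest values were 0.79 for Scn3a with Scn3b, 0.78 for Scn1a with Scn9a and 0.73 for Scn1a with Scn8a. Among the lowest were -0.78 for Scn1a with Scn3b, -0.76 for Scn9a with Cacna1e and -0.75 for Scn1a with Scn3a. For the 9 pairs of Scn1a, Scn8a or Scn9a with Scn3a, Scn3b or Cacna1e, rho was between -0.78 and -0.51, but these genes were picked for such values after they were seen, so the shared sign was fixed by the choice. From the 30 clusters lowest to the 30 highest in Scn1a, the median level of Scn9a went from 269 to 705 CPM and of Scn8a from 208 to 333 CPM, while Scn3a went from 220.1 to 104 CPM, Scn3b from 53.6 to 16.4 CPM and Cacna1e from 512 to 191 CPM. For Scn1a with Scn3a, rho was between -0.65 and -0.58 within the single libraries, -0.84 over glutamatergic and -0.70 over GABAergic clusters, and -0.75 without clusters 72, 104 and 148. These clusters share libraries and normalization, and depth moved with them: Scn1a had a rho of 0.62 and Scn3a of -0.51 with the median UMIs per nucleus of the cluster. The part of depth in these values was not tested. Cacna2d1 and Cacna2d3 had a rho of -0.63 over all clusters, but -0.32 within glutamatergic and -0.07 within GABAergic clusters.

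The comparison of AgRP-Gq;POMC-Gi with control mice asked whether channel transcripts of hindbrain cells differed 1 h after CNO. In all neurons together, 0 of the 28 channel genes tested passed an adjusted p of 0.05 in edgeR's quasi-likelihood test with Benjamini-Hochberg adjustment, against 0.0% of the 12115 genes tested. DESeq2 called 10 genes (0.0825%), none of them a channel gene. At an unadjusted p under 0.05, edgeR and DESeq2 each gave 1 of 28 channel genes, a different gene in each, with edgeR giving 5.51% and DESeq2 3.79% of all genes. Log2 fold changes of the 28 genes ran from -0.29 to 0.33 with a median of 0.07, and the median of all genes was -0.00028. In simulated neuronal counts the test recovered 99.5% of genes changed 2-fold and called 9 unchanged genes. Changes as small as those measured here were not simulated. Mice of a condition were pooled, with 2 mice per group. How these map to the 2 libraries is not given in the sources used here. P-values therefore measure only the spread between libraries, of which an unknown part may be technical. Xist in neurons was 541 CPM in AgRP-Gq;POMC-Gi library 1 and 16.2 CPM in library 2, so these libraries differed in sex make-up. Sex was not in the model, and its part was not tested.

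The gene with an unadjusted p under 0.05 in edgeR was Scn7a, at 13.5 and 12.0 CPM in control against 14.6 and 16.1 CPM in AgRP-Gq;POMC-Gi mice. The groups did not overlap, and the log2 fold change was 0.33 ± 0.11 (SE, edgeR unadjusted p = 0.0238, adjusted p = 0.81, against an unadjusted 0.0601 with DESeq2). For 13 of the 28 genes (46.4%) the CPM of the groups did not overlap, 8 higher and 5 lower in AgRP-Gq;POMC-Gi mice. This held for 38.1% of all genes, 10.4% higher and 27.7% lower. The 8 included Scn7a, Cacna1h, Cacna2d1, Cacna2d2, Cacnb2, Cacna1b and Cacna1d. Cacna2d1, as an example, stood at 486 and 479 CPM in control against 527 and 532 CPM in AgRP-Gq;POMC-Gi mice (a log2 fold change of 0.19 ± 0.09), and was the gene under 0.05 in DESeq2 (unadjusted p = 0.0367, against 0.0633 in edgeR). The 5 included Hcn2, Scn2b, Scn8a and Cacna1c. Hcn2 stood at 61.7 and 61.6 against 44.5 and 58.2 CPM (log2 fold change -0.21 ± 0.10), and Scn2b at 30.6 and 30.9 against 19.8 and 28.9 CPM (-0.29 ± 0.14).

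Short genes set AgRP-Gq;POMC-Gi library 1 apart. All 8 channel genes under 30 kb were lower in it than the mean of the other 3 libraries, by a median log2 value of -0.30, and the median of the 6176 genes of that length was -0.17. From 30 to 100 kb the median in library 1 was -0.12 for the 2 channel genes and -0.12 for the 3773 genes of that length. The 18 channel genes over 100 kb had a median of 0.08 there, against -0.0019 for the 2158 genes of that length. Without AgRP-Gq;POMC-Gi library 2, which leaves library 1 alone in its group, 10 of 28 channel genes passed the adjusted threshold in edgeR, as did 2017 of all 12115 genes (16.6%). Among those 10, Scn1a, Scn9a, Cacna1b, Cacna1d, Cacna2d1, Cacna2d2 and Cacnb2 were higher and Hcn2 and Scn2b lower. In that test 0 channel genes passed when any 1 of the other 3 libraries was left out. The parts of gene length and of sex in these differences were not tested.

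**Figure D4:**
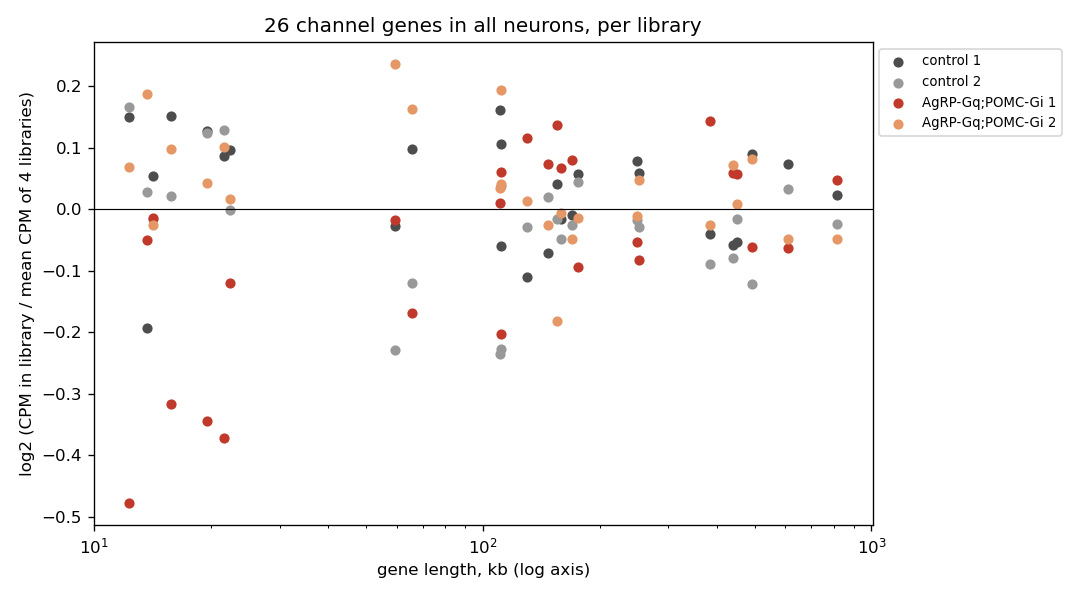
26 of the channel genes tested in all neurons: log2 of CPM in a library over the mean of the 4 libraries (y axis) against gene length in kb (log x axis), 1 point per gene and library. Below 30 kb the points of AgRP-Gq;POMC-Gi library 1 are the lowest for 5 of 7 genes.

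Genes for channel partners were tested next. The list held 36 genes that bind, anchor or regulate these channels or belong to the sodium leak channel complex. Of these, 33 were in the files and 32 were tested in neurons. In edgeR 0 of 32 passed the adjusted threshold, with 1 at an unadjusted p under 0.05 (against 5.51% of all genes), and DESeq2 called 0 (against 0.0825% of all genes). The 1 was Calm3, which encodes calmodulin, the calcium sensor bound to sodium and calcium channel pores, at 47.8 and 47.1 CPM in control against 28.6 and 42.6 CPM in AgRP-Gq;POMC-Gi mice (a log2 fold change of -0.36 ± 0.14, edgeR unadjusted p = 0.0387, adjusted p = 0.81). The log2 fold change was -0.15 without AgRP-Gq;POMC-Gi library 1 and -0.61 without library 2, and the unadjusted p passed above 0.05 on library size (0.0608) and without control library 1 (0.0502). Its groups did not overlap, and library 1 was again the lowest. The highest log2 fold change was 0.25 for Cacng5. Nalcn, the sodium leak pore, had 406 and 425 against 437 and 406 CPM, and Ank3, the ankyrin that anchors sodium channels at the axon initial segment, had 1213 and 1207 against 1233 and 1212 CPM.

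By cluster, 3253 pairs of channel gene and neuronal cluster were tested, and 1 passed an adjusted p of 0.05 within its cluster in edgeR (0.0307% of pairs, against 0.0387% of the 1396489 pairs of any gene and cluster). DESeq2 called 0 pairs. Over all pairs, 180 (5.53%) had an unadjusted p under 0.05 in edgeR, 110 of them higher and 70 lower in AgRP-Gq;POMC-Gi mice, against 4.51% of pairs of any gene. The balance turned in other settings: on library size without TMM factors 75 of 169 were higher and 94 lower, and without AgRP-Gq;POMC-Gi library 1 70 of 162 were higher and 92 lower. The 180 pairs were not spread evenly over genes. Cacna2d1 had 24 of its 115 clusters (20.9%, 16 of them higher) and Cacna2d3 19 of 119 (16.0%, 12 of them higher). Cacna1e had 13 of 120 (8 of them higher) and Scn2b 12 of 119 (1 of them higher). The clusters come from the same 4 libraries, so such counts are not independent, and no share by gene over all genes was made. Cacna1a, Cacna1b, Cacna1c, Cacnb4 and Scn2a had 1 each of 120. Cacna2d1 in GABAergic cluster 67 (Foxp2/Il1rapl2), picked after its values were seen, was among them with 34.8 and 23.1 CPM in control against 28.8 and 499 CPM in AgRP-Gq;POMC-Gi mice. Its groups overlapped, its high value rested on 154 UMIs in 12 of 22 nuclei of 1 library, and its adjusted p was 0.986 in edgeR. Without AgRP-Gq;POMC-Gi library 1, which leaves the high library alone in its group, it passed (log2 fold change 4.18, edgeR adjusted p = 2.78e-28).

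In the 9 other cell types with at least 20 nuclei in every library, 115 pairs of channel gene and type were tested and 1 passed in edgeR (against 0.148% of 67663 pairs of any gene and type), with 16 at an unadjusted p under 0.05 against 6.39% of all pairs. DESeq2 called 0. The pair was Cacna1a in mural cells, at 28.0 and 39.7 CPM in control against 128.5 and 97.2 CPM in AgRP-Gq;POMC-Gi mice. These levels came from 15, 17, 19 and 26 UMIs in 14, 13, 7 and 11 of 289, 251, 103 and 163 nuclei. The groups did not overlap, and the level rose with a log2 fold change of 1.74 ± 0.36 (SE, edgeR adjusted p = 0.00199, with 0.751% of 5723 genes called in mural cells). In neurons the gene had 779.8 and 734 against 707 and 773 CPM, and the difference between the mural and the neuronal response was 1.72 ± 0.39 on the log2 scale (interaction term, edgeR adjusted p = 0.00578 over 5332 genes). This term was fitted for Cacna1a after its mural call, on the same counts, and was not refitted in other settings. The 5 neuron markers summed to 293 and 341 CPM in control and 345 and 411 CPM in AgRP-Gq;POMC-Gi mural cells, against 2685 to 2747 CPM in neurons. Of these markers, Syt1 (43.0 and 39.7 against 67.6 and 74.8 CPM), Syn1 (11.2 and 18.7 against 33.8 and 37.4 CPM) and Stmn2 (87.8 and 86.4 against 108 and 142 CPM) were higher in both AgRP-Gq;POMC-Gi libraries, as was the sum. Snap25 (144 and 179.8 against 135 and 135 CPM) was lower in both, and Rbfox3 (7.47 and 16.3 against 0 and 22.4 CPM) overlapped. The channel genes Cacnb4 (33.6 and 25.7 against 60.9 and 74.8 CPM) and Cacna2d3 (50.4 and 49.0 against 74.4 and 123 CPM) were also higher in mural cells of both AgRP-Gq;POMC-Gi libraries. Their part in the Cacna1a difference was not tested. The call was lost with DESeq2 (log2 fold change 1.78, adjusted p = 0.245). In edgeR it was lost without control library 1 (1.49, adjusted p = 0.215), AgRP-Gq;POMC-Gi library 1 (1.54, adjusted p = 0.117) or library 2 (2.02, adjusted p = 0.103).

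**Figure D5:**
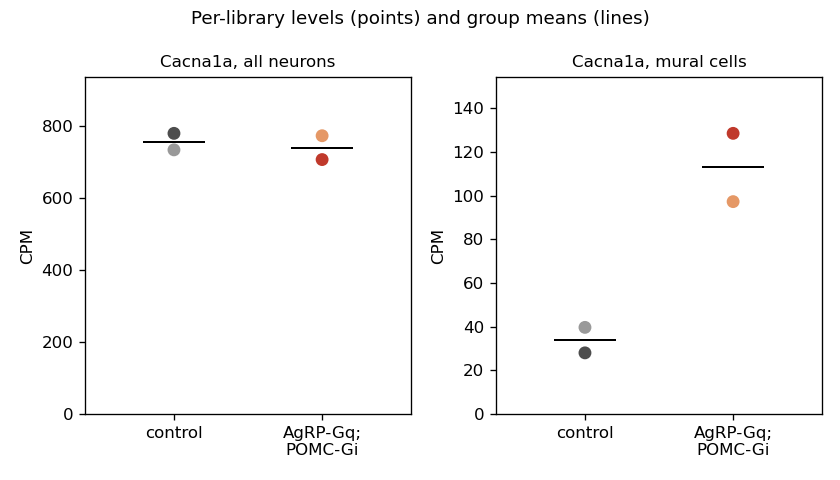
CPM (y axes, from 0) of Cacna1a in all neurons and in mural cells, 1 point per library with a line at each group mean (n = 2 libraries). The groups are apart in mural cells (28.0 to 39.7 against 97.2 to 128.5 CPM) and overlap in all neurons (734 to 779.8 against 707 to 773 CPM).

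Other channel genes in these types did not pass the adjusted threshold. The smallest p after Cacna1a was for Cacnb4 in astrocytes, at 191 and 159.9 against 111 and 124 CPM (log2 fold change -0.54 ± 0.12, edgeR adjusted p = 0.0855), with groups that did not overlap. It passed in edgeR on library size without TMM factors (log2 fold change -0.58, adjusted p = 0.0367), with no filter on genes (-0.53, adjusted p = 0.0117) and without control library 2 (-0.66, adjusted p = 0.0318). Hcn2 in oligodendrocytes, where the gene was highest, stood at 380.4 and 399 against 360.0 and 363 CPM.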

How the data were processed

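Single-nucleus RNA sequencing of the posterior hindbrain gave 4 libraries, 2 per group. The authors deposited whole-number UMI counts per gene and nucleus, made with Cell Ranger 7.0.0 on GRCm38/mm10 and handled in Seurat 4.3.0, with cell type and cluster annotation and the percent of mitochondrial counts of each nucleus. Their filter kept nuclei with at least 800 UMIs, 500 genes and at most 10% mitochondrial counts, and doublets were called in the study, with no mention of their removal. No doublet caller was run here. Only nuclei passing that filter were used, and 0 columns of samples were unmapped. Strand handling and intron counting are not given in the sources used here. Of the 36 genes, 18 overlapped a gene on the opposite strand and 0 one on the same strand.

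Counts were summed per library and cell type, cluster or class, and CPM and gene lengths were taken from these sums and from the GRCm38 annotation. Group tests used edgeR 4.0.16 (quasi-likelihood, TMM factors, Benjamini-Hochberg adjustment over all genes detected in at least 5% of the nuclei of a unit), under R 4.3.3, with a threshold of 0.05. DESeq2 1.42.0 was an alternative. Clusters needed 5 and other types 20 nuclei in every library. Classes needed 20 transporter UMIs. The test was checked on simulated counts with 200 changed genes. It recovered 99.5% of those changed 2-fold in neurons (12115 genes), 97.5% of those changed 4-fold in mural cells (5723 genes) and 49.5% of those changed 4-fold in 1 neuronal cluster (11538 genes). Unchanged genes called were 9, 9 and 6 in this order.

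Named genes were the highest per length of each role, those with a non-neuronal maximum, the 10 with the highest ratio of top to median cluster, those past 2-fold between classes in every library, those with an unadjusted p under 0.05 in neurons, and pairs of gene and cluster past the adjusted threshold. Some items were left out and are not reported here. Other clusters and genes are said to be picked after their values were seen. The members and lists were chosen with earlier results of these data known. Alternatives covered the scaling, the gene filter, the tool, the nuclei minimum, thinning of nuclei to 800 or 2000 UMIs, the class cut, a replicate term and each library left out.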

Additional observations from a re-analysis of the deposited data

Results flagged for a closer look

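The measured response of Cacna1a, the P/Q-type calcium channel pore, differed between mural cells and neurons in edgeR. The mural log2 fold change exceeded the neuronal one by 1.723 ± 0.39 (SE, interaction term, edgeR adjusted p = 0.00578), and 31 of 5332 genes passed the same test. Cacna1a was put to this test after its mural call, on the same counts, so the term is no separate support for the call. The interaction was not refitted in the other settings. Mural levels were higher in 2 of 2 AgRP-Gq;POMC-Gi libraries, on 15 to 26 UMIs in 7 to 14 nuclei per library. The mural call itself was lost with DESeq2 (adjusted p = 0.245) and, in edgeR, without control library 1 (adjusted p = 0.215), AgRP-Gq;POMC-Gi library 1 (0.117) or library 2 (0.103). The neuron markers Syt1, Syn1 and Stmn2, and the sum of 5 neuron markers, were also higher in mural cells of both AgRP-Gq;POMC-Gi libraries, and their part was not tested.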

How the results depend on the processing

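The count of 0 channel genes called in neurons ran from 0 to 10 when 1 library was left out, reaching 10 only without AgRP-Gq;POMC-Gi library 2. For partner genes the range was 0 to 6, again highest without that library, where 16.6% of all genes were called. In the other cell types 1 pair was called, against 2 on library size without TMM factors, 0 with DESeq2, 3 with no filter on genes, and 0 to 2 with 1 library left out. Calls over all genes moved too, from 0.148% of pairs to 0.259%, 0.291%, 0.508% and 0.29% to 1.18% in those settings. In clusters 1 pair was called, against 0 with DESeq2 and 2 to 8 with 1 library left out (8 without AgRP-Gq;POMC-Gi library 2). Over all genes the share called in clusters went from 0.0387% to 0.00344% and to between 0.0535% and 0.0977%. Most pairs gained in this way are not described here. The number of genes with the top cluster found in the main ranking was 15 of 33 by share of nuclei thinned to 2000 UMIs, and 21 to 27 with 1 library left out (21 without AgRP-Gq;POMC-Gi library 2). The causes were not tested. The 2 alpha2delta calls between classes kept their number in all 6 alternatives, and 18 to 21 genes were highest in neurons. Weighting clusters equally gave 19 rather than 13 genes with groups apart, 9 higher and 10 lower, against 36.0% of all genes (10.4% higher, 25.5% lower), with Cacna1b and Cacna1d then overlapping. The Scn7a p rose above 0.05 on library size, with DESeq2 and without either control library, with log2 fold changes of 0.24 to 0.42.

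Replicate numbers are shared between groups, but deviations of same-numbered libraries had a correlation of 0.184 over 12115 genes with 2 pairs only, so no pairing was assumed. With a replicate block, 0 channel genes, 1 partner gene, 2 pairs in other types and 3 in clusters were called. The partner gene was Calm3 (log2 fold change -0.38, edgeR unadjusted p = 0.000398). Among the pairs were Cacnb4 in astrocytes (edgeR adjusted p = 0.00105) and Cacna2d1 in cluster 67 (log2 fold change 2.89, edgeR adjusted p = 8.17e-06). The shares over all genes were then 1.39% in neurons, 1.11% of pairs in other types and 0.0565% in clusters. With 2 libraries per group, and few UMIs per cluster for the low genes, small differences could not be resolved, and in single clusters changes of 4-fold could be missed, since 49.5% of simulated ones were found.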
